A study of Mus musculus with 35 samples.

Results

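Expression of 9 C-type lectin receptor genes of the 2 Dectin clusters was followed across 6 groups of liver macrophages (macs) in the bulk RNA-seq libraries of a study of diet-induced fatty liver disease. The members were chosen by name: *Clec4a1*, *Clec4a2*, *Clec4a3*, *Clec4b1*, *Clec4d*, *Clec4e*, *Clec4n*, *Clec7a* and *Clec12a*. These are 9 of 54735 genes in the count tables, and all 9 were among the 13421 genes with more than 1 CPM (read counts scaled to library size) in at least 5 libraries.

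The 35 libraries came from male C57BL/6J mice put on a standard diet (SD) or a western diet (WD; fat, cholesterol and sugar) from 5 weeks of age. Resident Kupffer cells (ResKCs), sorted as CLEC4F+ TIM4+, were taken at 12 weeks of diet from SD-fed mice (n = 7) and WD-fed mice (n = 5), and at 24 weeks from SD-fed mice (n = 6) and WD-fed mice (n = 6). Monocyte-derived Kupffer cells (moKCs), sorted as CLEC4F+ TIM4- (n = 5), and CLEC4F- TIM4- macs (n = 6) were taken from WD-fed mice at 24 weeks, so these populations have no SD counterpart here. For the 5 WD libraries of 12 weeks, 1 label field names the standard diet while title and description name the western diet, and the title was followed. The study gives its n as numbers of mice, but the labels tie no library to a mouse, so whether libraries of different populations share mice is not known here and p-values measure the spread between libraries.

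The receptors of these clusters are membrane proteins of myeloid cells that bind sugars, lipids and products of dead cells or microbes. One set, Mincle (*Clec4e*), MCL (*Clec4d*), Dectin-2 (*Clec4n*) and DCAR (*Clec4b1*), has no signalling motif of its own and couples to the Fc receptor gamma chain (*Fcer1g*), which recruits the kinase SYK. Dectin-1 (*Clec7a*), the receptor for fungal beta-glucan, carries its own tyrosine motif for SYK, and signals from SYK pass through CARD9 to NF-kappaB. DCIR (*Clec4a2*) and MICL (*Clec12a*) carry inhibitory motifs that recruit phosphatases such as SHP-1 (*Ptpn6*), whereas the mouse relatives DCIR3 (*Clec4a3*) and DCIR4 (*Clec4a1*) lack that motif.

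The sorted populations carried the markers of their names, with exceptions that bear on the values below. Totals ranged from 11568590 to 15163845 counts per library, so that 3 counts correspond to between 0.198 and 0.259 CPM. Levels of *Clec4f* averaged 12622 ± 1579 CPM (SD over 6 libraries) in the WD ResKCs of 24 weeks, 9844 ± 1906 (n = 5) in moKCs and 1718 ± 1893 (n = 6) in CLEC4F- macs. The TIM4 gene *Timd4* was at 732 ± 116 CPM in the WD ResKCs and at 12.5 ± 11.5 in the moKCs. CLEC4F- mac replicate 4 stood apart, with a summed level of 10 Kupffer cell markers of 12539 CPM against 1346 to 5665 CPM in the other 5, and the lowest sum of 8 monocyte markers, 497 CPM against 767 to 1511. CLEC4F- mac replicate 1 had the highest sum of 6 lymphocyte markers, 113 CPM against 13.7 to 22.6. It also had the highest monocyte sum, 1511 CPM, and the highest dendritic cell marker sum, 318 CPM against 47.1 to 123. Its sum of 10 immediate early and heat shock (stress) genes was the highest too, 10865 CPM against 2172 to 5807. This library was the highest of the CLEC4F- macs for *Clec4a1*, *Clec4d*, *Clec4e* and *Clec7a*. In moKC replicate 1 the sum of the 10 stress genes was 10587 CPM, against 1769 to 6165 in the other moKCs. It also had the highest endothelial and hepatocyte marker sums of the moKCs, 1427 and 2146 CPM (medians 662 and 1334). The same held for its monocyte, dendritic cell and stellate cell sums, at 439, 127 and 192 CPM (medians 353, 53.3 and 156). Its lymphocyte sum was the lowest. This library was the lowest of the moKCs for *Clec4a2*, *Clec4a3*, *Clec4b1*, *Clec4d*, *Clec4n*, *Clec7a* and *Clec12a*. The alignments named inside the count tables carry 2 styles of name, used for 22 and 13 libraries and called the first and second naming scheme here; what they mark is not given in the sources used here. All WD ResKCs of 12 weeks and all SD ResKCs of 24 weeks are of the first scheme.

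In the GENCODE M21 annotation of mouse build GRCm38 (mm10), both clusters lie on chromosome 6. The Dectin-2 cluster holds 7 of the members within 368 kb (6:122921848-123289870) in the order *Clec4a1*, *Clec4a3*, *Clec4b1*, *Clec4a2*, *Clec4n*, *Clec4d*, *Clec4e*. *Clec4n* (6:123229843-123247021, plus strand), *Clec4d* (6:123262111-123275265, plus strand) and *Clec4e* (6:123281789-123289870, minus strand) follow each other directly, with 15089 and 6523 bases between them. *Clec12a* (6:129342691-129365303, plus strand) and *Clec7a* (6:129461591-129472779, minus strand) lie in the Dectin-1 cluster. The annotation gives 8 members as protein coding and *Clec7a* as a polymorphic pseudogene. *Clec4a2* overlaps a processed pseudogene on the same strand, *Gm44132*, and no other member overlaps an annotated gene. Of all 75-base windows, the length of the reads, in the transcripts of *Clec4a2*, 3.24% also occur in another gene, mostly the neighbour *Clec4a4*, which stayed at or below 1.81 CPM in every library. For *Clec4b1* this share was 1.02% and for the other 7 members it was 0%.

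Promoter entries in the RefSeq table for GRCm38.p6 exist for 8 of the members. The 250 bases before the start are shown for the adjacent genes *Clec4e* (chr6:123289872-123290121, minus strand) and *Clec4d* (chr6:123261857-123262106, plus strand), because these neighbours differed between CLEC4F- macs and both Kupffer cell groups of WD-fed mice. Capitals mark matches on either strand to GAGGAA (the core bound by the myeloid factor PU.1), TTGCNNAA (C/EBP), TGANTCA (AP-1), an NF-kappaB motif and the core promoter letters TATAAA.
Clec4e: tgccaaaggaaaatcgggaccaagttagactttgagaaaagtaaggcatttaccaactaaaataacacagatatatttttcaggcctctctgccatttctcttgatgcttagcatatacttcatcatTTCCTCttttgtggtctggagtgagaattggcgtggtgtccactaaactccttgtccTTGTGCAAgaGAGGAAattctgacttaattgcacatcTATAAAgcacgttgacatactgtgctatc
Clec4d: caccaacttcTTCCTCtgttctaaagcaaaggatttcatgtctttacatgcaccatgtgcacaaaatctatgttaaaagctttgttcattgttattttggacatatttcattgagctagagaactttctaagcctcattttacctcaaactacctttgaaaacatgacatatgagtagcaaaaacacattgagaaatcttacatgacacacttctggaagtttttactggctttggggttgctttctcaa

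GAGGAA occurred in the windows of 7 of the 8 members, all but *Clec4a2*, and in 23.3% of all 32851 promoter entries. TTGCNNAA occurred in *Clec4e* and *Clec12a* (9.56% of entries), TGANTCA in *Clec12a* (6.75%) and TATAAA in *Clec4e* and *Clec4a2* (12.4%). The NF-kappaB motif occurred in none of the 8 and in 0.356% of entries. The *Clec4e* window thus held the GAGGAA, TTGCNNAA and TATAAA letters, the latter 29 bases before the start, and the *Clec4d* window held GAGGAA alone. Such matches describe the letters and were not tested as binding sites.

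Scaled to exon length, the members spanned a wide range of levels in each population. In WD ResKCs at 24 weeks *Clec4n* had the highest mean, 275 ± 38.2 CPM per kb (SD, n = 6), with *Clec4a3* at 256 ± 24.1 and *Clec7a* at 217 ± 61.8, neighbours whose spreads overlap. *Clec12a* (68.8 ± 5.75 CPM per kb), *Clec4a1* (51.0 ± 11.7), *Clec4b1* (34.9 ± 10.2) and *Clec4a2* (28.8 ± 4.46) formed a middle range, and *Clec4d* (2.62 ± 1.27) and *Clec4e* (0.543 ± 0.446) came last. In the SD ResKCs of both times and the WD ResKCs of 12 weeks *Clec4a3* ranked first. In moKCs and CLEC4F- macs *Clec7a* had the highest mean, at 295 ± 93.8 CPM per kb (n = 5) and 455 ± 56.2 (n = 6), and *Clec4b1* came next after *Clec4a3* and *Clec4n*. Summed over the 9 members, the length-scaled level was 935 ± 111 CPM per kb in WD ResKCs, 1053 ± 215 in moKCs and 1263 ± 98.8 in CLEC4F- macs at 24 weeks.

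**Figure D1:**
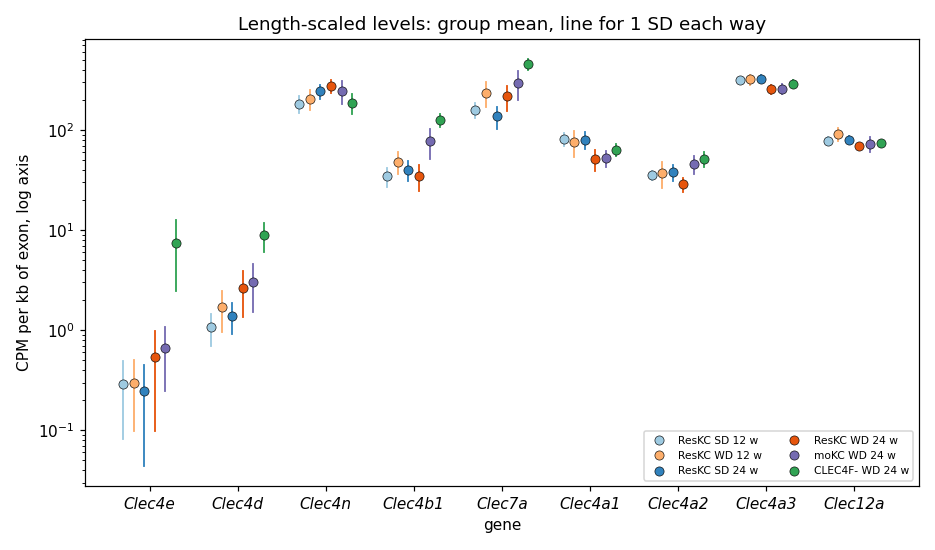
Mean level of each receptor gene (x axis) in CPM per kb of exon on a log axis (y axis), coloured by group, with a line of 1 SD each way. *Clec4e* and *Clec4d* lie lowest in all 6 groups, and *Clec7a* reaches 455 CPM per kb in CLEC4F- macs.

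Differences between groups were tested in 1 edgeR quasi-likelihood fit over all 35 libraries, with Benjamini-Hochberg adjustment over the 13421 genes, and a gene was called at an adjusted p under 0.05. Between CLEC4F- macs and WD ResKCs at 24 weeks, 5 of the 9 members were higher and 1 was lower in the CLEC4F- macs, where 16.1% of all genes tested were called higher and 17% lower. In moKCs 2 members were higher than in the WD ResKCs, against 0.991% of all genes. In CLEC4F- macs 4 members were higher than in moKCs, against 7.09% of all genes. In a fit of these groups alone with the replicate number as a block, no member was called for CLEC4F- macs against moKCs. With WD at 24 weeks, 1 member was higher and 2 were lower in ResKCs than with SD, against 4.84% and 3.87% of all genes. At 12 weeks no member was called between the diets, with 0.0373% of all genes called in either direction and 1172 genes at an unadjusted p under 0.05. No member was called for a diet effect that differed between 24 and 12 weeks, where 0.283% of all genes were. Between 12 and 24 weeks 3 members were lower in WD ResKCs, against 1.73% of all genes, and none was called in SD ResKCs, where 0% of genes were called and 1208 had an unadjusted p under 0.05.

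The scale of these comparisons rests on trimmed-mean (TMM) factors. With library size alone the median gene of CLEC4F- macs against WD ResKCs moved up by 0.123 on the log2 scale, and the called genes went from 2155 higher and 2278 lower to 3268 and 1631. The split also moved for CLEC4F- macs against moKCs (from 951 and 1253 to 1478 and 938), for WD against SD at 24 weeks (from 650 and 519 to 1139 and 340), for the difference of the diet effects (from 9 and 29 to 21 and 12) and for WD ResKCs between the times (from 206 and 232 to 292 and 157). Every called member kept its direction under both scalings, and the called log2 differences of the populations below are given as fitted with TMM, where the median of all genes lay between -0.01 and 0.02.

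**Figure D2:**
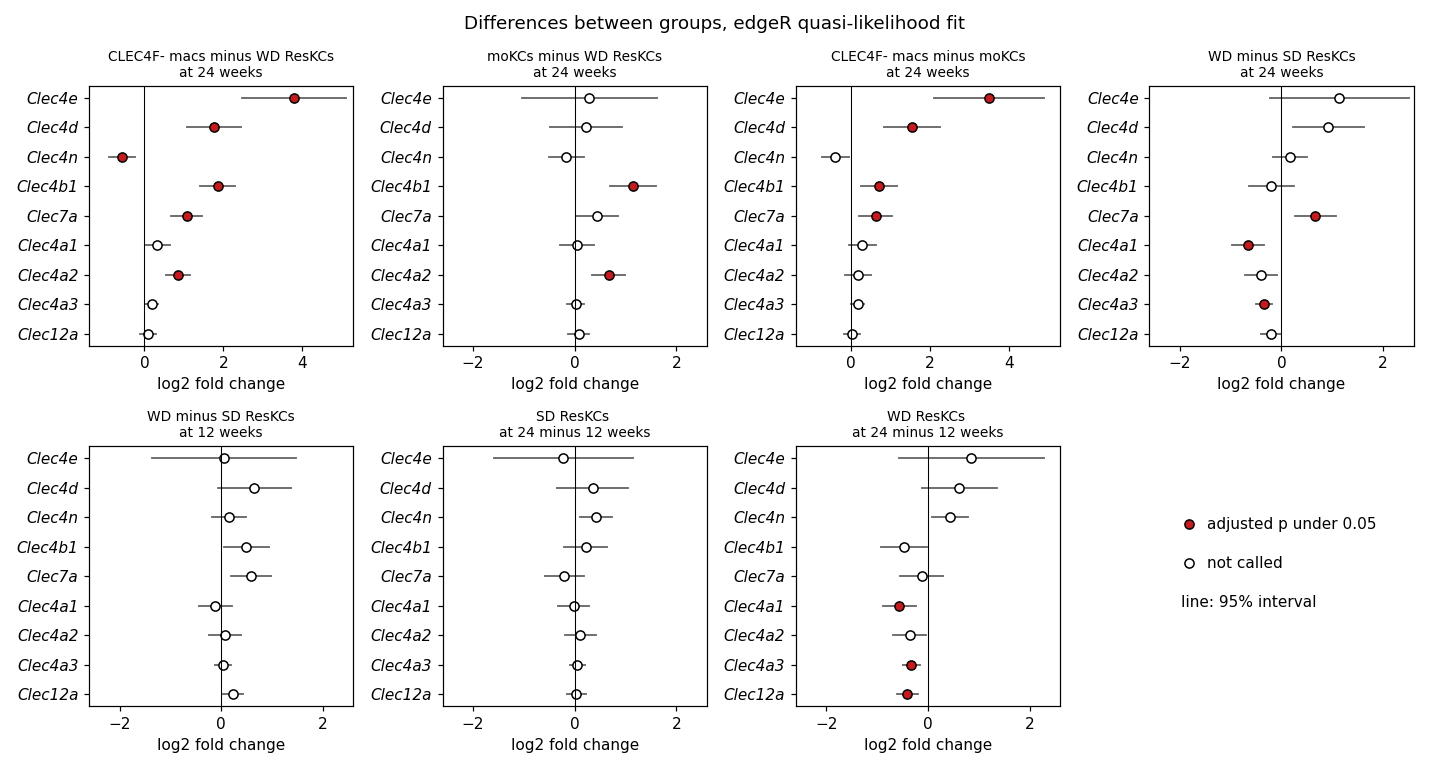
Fitted log2 fold change of each receptor gene (x axis) in 7 comparisons (panels), with 95% intervals as lines and filled points for genes at an adjusted p under 0.05. The filled points lie right of 0 except for *Clec4n* in CLEC4F- macs, for *Clec4a1* and *Clec4a3* with WD at 24 weeks, and for *Clec4a1*, *Clec4a3* and *Clec12a* over time on the WD.

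Mincle and its partner MCL were the lowest of the 9 per kb of exon in Kupffer cells and were higher in CLEC4F- macs. *Clec4e*, the Mincle gene, stood at 82.0, 40.4, 36.8, 5.70, 27.7 and 31.1 CPM in CLEC4F- mac replicates 1 to 6, with a lowest value of 5.70, a median of 33.9 and a highest of 82.0. In WD ResKCs at 24 weeks its lowest, median and highest values were 0.614, 2.15 and 5.34 CPM, and in the 5 moKC libraries it was at 2.13, 1.49, 1.80, 6.04 and 5.05 CPM. Every CLEC4F- mac library thus lay above every WD ResKC library, whereas CLEC4F- replicate 4, the library rich in Kupffer cell markers, fell within the range of the moKCs. The log2 fold change was 3.79 ± 0.65 (SE) against WD ResKCs (adjusted p = 1.94e-05) and 3.50 ± 0.68 against moKCs (adjusted p = 0.000325). Between moKCs and WD ResKCs the log2 difference in *Clec4e* was 0.29, with a 95% interval of -1.04 to 1.62 that the spread between libraries left wide. Leaving out CLEC4F- replicates 1 and 4 together gave 3.67 against WD ResKCs and 3.38 against moKCs.

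The *Clec4e* difference was larger within the first naming scheme than within the second, but the 2 values were not tested against each other. CLEC4F- replicate 1, with the highest *Clec4e*, is of the first scheme, and replicate 4, rich in Kupffer cell markers, is of the second. Naming scheme and the make-up of these libraries therefore cannot be told apart. Within the first scheme, CLEC4F- macs (replicates 1 to 3) exceeded WD ResKCs by 5.99 on the log2 scale (adjusted p = 1.15e-05), and within the second (replicates 4 to 6) by 2.23 (adjusted p = 0.0529). Against moKCs the corresponding *Clec4e* values were 4.87 (adjusted p = 0.000822) and 2.32 (adjusted p = 0.113). In the WD ResKCs the 3 libraries of the second scheme, at 5.34, 3.07 and 5.28 CPM of *Clec4e*, lay above the 3 of the first, at 0.653, 1.23 and 0.614.

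*Clec4d*, which encodes MCL, a receptor that pairs with Mincle on the cell surface, followed the same order at lower contrast. It was at 21.0, 12.8, 14.99, 6.87, 13.6 and 15.9 CPM in the 6 CLEC4F- mac libraries, from 1.93 to 6.77 CPM with a median of 3.60 in WD ResKCs, and at 2.07, 6.83, 3.22, 7.95 and 4.32 CPM in moKCs. Again CLEC4F- replicate 4 was lowest, just above the highest WD ResKC library and below 1 moKC library. The log2 fold change of *Clec4d* was 1.76 ± 0.33 against WD ResKCs (adjusted p = 8.97e-05) and 1.54 ± 0.35 against moKCs (adjusted p = 0.00194). Within the first naming scheme it was 2.30 and 1.88 (adjusted p = 0.000619 and 0.0177), and within the second 1.25 and 1.23 (adjusted p = 0.118 and 0.252).

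In SD ResKCs both genes were also low. *Clec4e* had means of 1.43 ± 1.03 CPM at 12 weeks (n = 7) and 1.23 ± 1.01 at 24 weeks (n = 6), and *Clec4d* of 1.73 ± 0.613 and 2.22 ± 0.757. The log2 differences with WD at 24 weeks were 1.14 for *Clec4e* (95% interval -0.23 to 2.505, adjusted p = 0.300) and 0.92 for *Clec4d* (0.22 to 1.62, adjusted p = 0.0891). Neither was called. Without WD ResKC replicate 5 the *Clec4d* value was 1.07 at an adjusted p of 0.0481, and within the first naming scheme that of *Clec4e* was -0.55 (adjusted p = 0.725), the opposite sign.

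**Figure D3:**
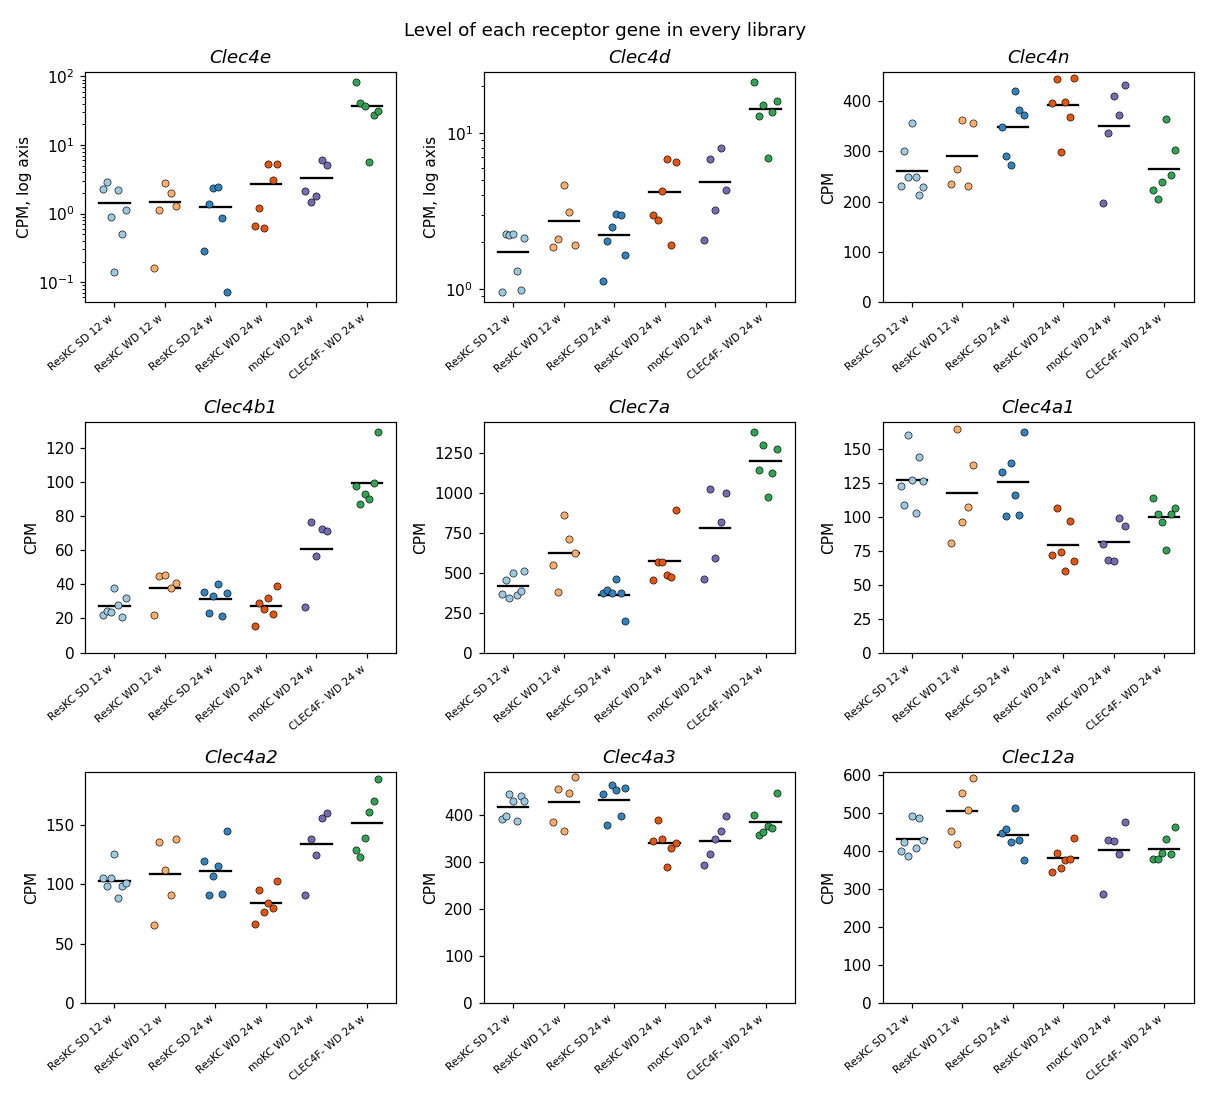
Level of each receptor gene in CPM (y axis, log for *Clec4e* and *Clec4d*, linear from 0 for the others) in every library of the 6 groups (x axis), with a horizontal bar at the group mean. The 6 CLEC4F- mac libraries of *Clec4e* run from 5.70 to 82.0 CPM, and those of *Clec4b1*, *Clec7a* and *Clec4a2* lie above all 6 WD ResKC libraries of 24 weeks.

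Dectin-2 (*Clec4n*), the mannan receptor encoded next to *Clec4d*, differed in the other direction. In CLEC4F- macs it ran from 205 to 365 CPM with a median of 246, against 299 to 445 with a median of 396 in WD ResKCs and 197, 336, 410, 372 and 431 CPM in moKCs. The ranges of CLEC4F- macs and WD ResKCs overlapped, with CLEC4F- replicates 4 and 6 inside the range of the ResKCs. Against WD ResKCs the log2 fold change of *Clec4n* was -0.56 ± 0.16 (adjusted p = 0.00720). It was -0.76 within the first naming scheme (adjusted p = 0.0112) and -0.39 within the second (adjusted p = 0.176). Against moKCs it was -0.40 (95% interval -0.75 to -0.05, adjusted p = 0.113), a value that was called without moKC replicate 1 (-0.55, adjusted p = 0.0177) or without CLEC4F- replicate 4 (-0.51, adjusted p = 0.0306). moKC replicate 1 had the lowest *Clec4n* of its group and its highest summed level of 10 stress genes, 10587 CPM, against 1769 to 6165 CPM in the other 4.

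In ResKCs, *Clec4n* was at 261 ± 49.9 CPM with SD and 290 ± 64.6 with WD at 12 weeks, and at 347 ± 56.4 with SD and 391 ± 54.2 with WD at 24 weeks. The levels of 24 weeks were above those of 12 weeks in mean on both diets, by 0.42 in SD ResKCs (adjusted p = 0.421) and 0.43 in WD ResKCs (adjusted p = 0.156) on the log2 scale. Neither difference in *Clec4n* was called, nor was a diet effect at either time (0.15 and 0.17).

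DCAR (*Clec4b1*), a receptor for mycobacterial lipids, was higher in both TIM4- populations. In WD ResKCs it ranged from 15.7 to 38.9 CPM with a median of 27.3, in moKCs it was at 27.0, 76.2, 56.6, 72.6 and 71.3 CPM, and in CLEC4F- macs it ranged from 87.2 to 129 with a median of 95.4. All CLEC4F- mac libraries lay above all moKC libraries, and 4 of the 5 moKC libraries lay above all WD ResKC libraries, the exception being moKC replicate 1. *Clec4b1* had log2 fold changes of 1.86 ± 0.22 for CLEC4F- macs against WD ResKCs (adjusted p = 3.28e-08), 1.15 ± 0.22 for moKCs against WD ResKCs (adjusted p = 0.00201) and 0.71 ± 0.22 for CLEC4F- macs against moKCs (adjusted p = 0.0234). The first of these was called within both naming schemes (2.00 and 1.76; adjusted p = 7.79e-05 and 0.000456). The second kept its size within them at 1.15 and 1.09 but was called in neither (adjusted p = 0.155 and 0.0556), and the third was 0.85 and 0.67 (adjusted p = 0.121 and 0.149). The third was also lost without moKC replicate 1 (0.52, adjusted p = 0.0918), without moKC replicate 3 (0.69, adjusted p = 0.0533) or without CLEC4F- replicate 6 (0.62, adjusted p = 0.0606). Diet did not give a called difference in *Clec4b1*, with log2 values of 0.49 at 12 weeks (adjusted p = 0.509) and -0.20 at 24 weeks (adjusted p = 0.617).

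Dectin-1 (*Clec7a*) was the member with the highest level per kb of exon in both TIM4- populations and the only member called higher with WD in ResKCs at 24 weeks. In CLEC4F- macs it stood between 971 and 1383 CPM with a median of 1209, in moKCs at 462, 1025, 593, 818 and 997 CPM, and in WD ResKCs between 457 and 891 CPM with a median of 523. Every CLEC4F- mac library lay above every WD ResKC library, whereas 2 moKC libraries exceeded the lowest CLEC4F- mac library. The log2 fold change of *Clec7a* in CLEC4F- macs was 1.07 ± 0.20 against WD ResKCs (adjusted p = 6.40e-05), and it was called within both naming schemes (1.28 and 0.87; adjusted p = 0.00211 and 0.0358). Against moKCs it was 0.62 ± 0.21 (adjusted p = 0.0355), and within the schemes 0.78 and 0.48 (adjusted p = 0.127 and 0.397). That call was lost when any of moKC replicates 1, 3 or 4 or CLEC4F- replicates 1, 3 or 6 was left out, with values from 0.48 to 0.64 and adjusted p from 0.0508 to 0.135, and without a filter on low counts (0.60, adjusted p = 0.0580). For moKCs against WD ResKCs the log2 value was 0.45 (95% interval 0.03 to 0.86, adjusted p = 0.272).

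With diet, *Clec7a* at 24 weeks ran from 195 to 462 CPM (median 374) in SD ResKCs and from 457 to 891 CPM in WD ResKCs. The groups overlapped in 1 library each, since the highest SD library, replicate 4, lay above the lowest WD library, replicate 1. The log2 fold change was 0.66 ± 0.20 (adjusted p = 0.0310). This *Clec7a* call was lost without SD replicate 6, the lowest (0.54, adjusted p = 0.0732), or without WD replicate 6, the highest (0.49, adjusted p = 0.115), and within the first naming scheme the value was 0.54 (adjusted p = 0.204). With the naming scheme as a covariate it was 0.62 (adjusted p = 0.0681). At 12 weeks the WD libraries were at 546, 380, 860, 710 and 621 CPM and the SD libraries between 339 and 513 CPM with a median of 384. The *Clec7a* difference at 12 weeks was of a like size, 0.58 (95% interval 0.18 to 0.98), but not called (adjusted p = 0.387), and the difference of the diet effects was 0.08 (95% interval -0.49 to 0.65, adjusted p = 0.933).

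Of the DCIR relatives, *Clec4a2* was called higher in the TIM4- populations, and *Clec4a1* and *Clec4a3* were called lower in ResKCs with WD at 24 weeks. *Clec4a2* also had a lower mean with WD, and *Clec4a1* and *Clec4a3* higher means in CLEC4F- macs than in WD ResKCs, without a call in the main fit. The genes were not tested against each other. DCIR itself (*Clec4a2*), the member with the inhibitory motif, was at 66.4 to 103 CPM (median 82.1) in WD ResKCs, at 91.0, 138, 124, 156 and 160 CPM in moKCs and at 123 to 188 CPM (median 150) in CLEC4F- macs. Every CLEC4F- mac library lay above every WD ResKC library, and the moKCs overlapped both. The log2 fold change of *Clec4a2* was 0.85 ± 0.15 in CLEC4F- macs (adjusted p = 4.19e-05) and 0.67 ± 0.16 in moKCs (adjusted p = 0.0143) against WD ResKCs. The first was called within both naming schemes (0.73 and 0.96; adjusted p = 0.0203 and 0.000996), the second within the second scheme only (0.72, adjusted p = 0.0463; first scheme 0.54, adjusted p = 0.420). The moKC value was also lost without moKC replicate 4 (0.61, adjusted p = 0.0551) or replicate 5 (0.60, adjusted p = 0.0577). Between CLEC4F- macs and moKCs the *Clec4a2* difference was 0.18 (95% interval -0.14 to 0.50). With diet at 24 weeks it ran from 90.6 to 145 CPM in SD ResKCs, a log2 difference of -0.41 for WD (adjusted p = 0.0896) that was called with the naming scheme as a covariate (-0.52, adjusted p = 0.0370).

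*Clec4a1* (DCIR4) ran from 101 to 162 CPM (median 124) in SD ResKCs and from 59.8 to 107 CPM (median 73.2) in WD ResKCs at 24 weeks, and 5 of the 6 WD libraries lay below all SD libraries. It fell by 0.66 on the log2 scale (SE 0.16, adjusted p = 0.00823). *Clec4a3* (DCIR3) ran from 378 to 462 CPM (median 447) with SD and from 289 to 389 CPM (median 341) with WD, where 5 of the 6 WD libraries again lay below all SD libraries. It fell by 0.35 (SE 0.08, adjusted p = 0.00563). Both calls held without any single library, with adjusted p up to 0.0261 for *Clec4a1* and 0.0200 for *Clec4a3*, but were not made within the first naming scheme, to which all SD libraries of 24 weeks belong (-0.58 and -0.27; adjusted p = 0.111 and 0.106). At 12 weeks the log2 values were -0.12 and 0.03 (adjusted p = 0.874 and 0.932), and the difference between the diet effects was -0.54 for *Clec4a1* (adjusted p = 0.257) and -0.38 for *Clec4a3* (adjusted p = 0.104). A diet effect that differed between the times was therefore not shown for either.

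In WD ResKCs *Clec4a3* was lower at 24 than at 12 weeks, and *Clec4a1* passed the threshold narrowly. *Clec4a1* was at 80.9, 164, 96.3, 107 and 138 CPM and *Clec4a3* at 384, 455, 365, 447 and 480 CPM in the 5 WD libraries of 12 weeks. The log2 differences were -0.56 ± 0.16 (adjusted p = 0.0497) and -0.33 ± 0.08 (adjusted p = 0.0237). The *Clec4a1* call was made in 2 and the *Clec4a3* call in 6 of 11 other settings of the fit. That of *Clec4a1* was also lost without any 1 of 8 libraries (12-week replicates 2, 3, 4 and 5 and 24-week replicates 1, 3, 4 and 6), with adjusted p up to 0.154. The *Clec4a3* call was lost without 12-week replicate 4 (-0.31, adjusted p = 0.0569), 12-week replicate 5 (-0.28, adjusted p = 0.0917) or 24-week replicate 4 (-0.29, adjusted p = 0.0629). Within the first naming scheme, to which all 12-week WD libraries belong, neither was called (-0.48 and -0.24; adjusted p = 0.271 and 0.226). In CLEC4F- macs *Clec4a1* was at 99.4 ± 12.99 CPM and *Clec4a3* at 385 ± 32.9 CPM, not called against WD ResKCs (0.32 and 0.18; adjusted p = 0.115 and 0.0749). Scaled to library size alone both were called against WD ResKCs (0.45 and 0.30; adjusted p = 0.0236 and 0.00165), as they were without WD ResKC replicate 2 (0.43 and 0.22; adjusted p = 0.0396 and 0.0328) and *Clec4a3* without CLEC4F- replicate 2 (0.21, adjusted p = 0.0431).

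MICL (*Clec12a*), an inhibitory receptor for uric acid crystals, was expressed at a similar level in all 3 populations of WD-fed mice. It ran from 345 to 434 CPM (median 378) in WD ResKCs and from 378 to 463 CPM (median 394) in CLEC4F- macs, and was at 285, 429, 427, 393 and 478 CPM in moKCs. The groups overlapped throughout, and the log2 differences lay within narrow intervals, -0.10 to 0.29 for CLEC4F- macs and -0.13 to 0.29 for moKCs against WD ResKCs. In WD ResKCs *Clec12a* was lower at 24 than at 12 weeks, when it stood at 452, 419, 552, 508 and 592 CPM, with a log2 difference of -0.41 ± 0.10 (adjusted p = 0.0231). It was lost without 12-week replicate 3 (-0.37, adjusted p = 0.0644), 12-week replicate 5 (-0.34, adjusted p = 0.0903) or 24-week replicate 1 (-0.38, adjusted p = 0.0535), and was -0.47 (adjusted p = 0.0926) within the first naming scheme. The *Clec12a* diet differences were 0.22 at 12 weeks (adjusted p = 0.509) and -0.21 at 24 weeks (adjusted p = 0.164; -0.30 and 0.0444 with the naming scheme as a covariate), and the difference between them was -0.44 (95% interval -0.72 to -0.16, adjusted p = 0.132).

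**Figure D4:**
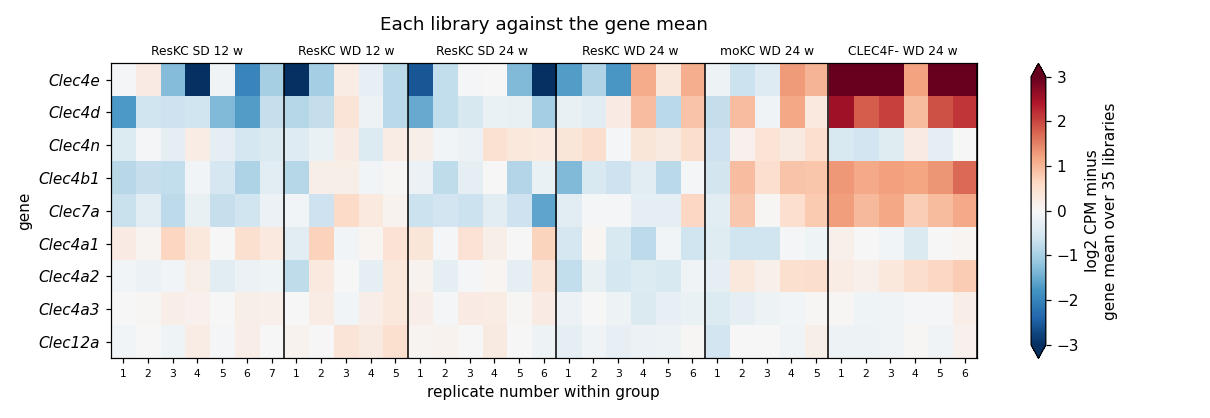
log2 CPM of each receptor gene (rows) in each of the 35 libraries (columns, by group and replicate number) minus the gene's mean over all libraries, with the colour scale cut at 3 in both directions. *Clec4e* and *Clec4d* are above their means in all 6 CLEC4F- mac libraries, least so in replicate 4, and *Clec4a3* and *Clec12a* vary least.

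Markers of other cells moved with the populations. In moKCs against WD ResKCs, beside the *Clec4b1* and *Clec4a2* differences, 4 of 10 Kupffer cell markers and 1 of 6 macrophage markers were lower, and 1 of 7 tested monocyte markers (*Ccr2*) and 2 of 5 stellate cell markers were higher, with stellate sums of 76.7 to 192 CPM against 37.9 to 108 CPM. Against WD ResKCs, all 10 Kupffer cell markers were lower in CLEC4F- macs, and 4 of 7 tested monocyte markers, 3 of 7 dendritic cell markers, 5 of 5 tested lymphocyte markers and 1 of 4 tested neutrophil markers were higher. Of the other lists, 2 of 5 stellate cell markers, 3 of 10 stress genes and 1 of 6 macrophage markers were higher, 4 macrophage markers and 2 of 6 endothelial markers were lower, and none of 8 hepatocyte markers was called. The monocyte sum ran from 497 to 1511 CPM in CLEC4F- macs against 224 to 351 CPM in WD ResKCs, the dendritic cell sum from 47.1 to 318 against 25.3 to 70.7 CPM, and the lymphocyte sum from 13.7 to 113 against 5.57 to 8.74 CPM. The neutrophil sum ran from 74.0 to 123 CPM in CLEC4F- macs against 71.6 to 97.5 CPM in WD ResKCs. The monocyte gene *Ccr2* was at 717 ± 331 CPM in CLEC4F- macs. The neutrophil gene *Ly6g* had no count in any library of the 6 groups. In the paper's single-cell data only 1 of 3 neutrophil clusters had *Ly6g* mRNA, so its absence does not show that neutrophils were absent. The part of other cells in the *Clec4e*, *Clec4d*, *Clec4b1*, *Clec4a2* and *Clec7a* differences was not tested, and in such bulk samples fewer expressing cells and less RNA per cell cannot be told apart. Of the 5 members higher in CLEC4F- macs, all 5 remained called with replicates 1 and 4 left out, with log2 values of 3.67 (*Clec4e*), 1.92 (*Clec4b1*), 1.78 (*Clec4d*), 1.10 (*Clec7a*) and 0.90 (*Clec4a2*).

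Between the diets at 24 weeks, 7 of 10 immediate early and heat shock genes, which rise during tissue digestion, were lower with WD. Their sum ran from 2587 to 13824 CPM in SD ResKCs and from 1050 to 4945 CPM in WD ResKCs. Also with WD, 2 of 7 tested monocyte markers, 1 of 7 dendritic cell markers and 1 of 8 hepatocyte markers were higher, and 1 endothelial, 1 stellate cell and 1 macrophage marker were lower. The monocyte sum ran from 168 to 264 CPM with SD and from 224 to 351 CPM with WD, and the hepatocyte sum from 308 to 1039 and from 755.8 to 2393 CPM. The dendritic cell sum ran from 39.7 to 139 CPM with SD and from 25.3 to 70.7 CPM with WD, the endothelial sum from 731 to 1683 and from 468 to 932 CPM, and the stellate cell sum from 67.0 to 196 and from 37.9 to 108 CPM. The part of these cells in the *Clec7a*, *Clec4a1* and *Clec4a3* differences was not tested. With a score of the stress genes as a covariate, *Clec4a3* stayed called (-0.39, adjusted p = 0.0152), while *Clec4a1* (-0.58, adjusted p = 0.0706) and *Clec7a* (0.51, adjusted p = 0.216) were not.

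The genes of the shared signalling route were expressed throughout, with the exception of a low *Card9*. In WD ResKCs at 24 weeks the adaptor *Fcer1g* was at 1000.4 ± 44.8 CPM, *Syk* at 455 ± 51.7, the phosphatase gene *Ptpn6* at 576 ± 34.5 and *Card9* at 4.34 ± 1.96. None of the 4 was called between CLEC4F- macs, moKCs and WD ResKCs, with log2 values from -0.13 to 0.47 and adjusted p from 0.142 to 0.985. With WD at 24 weeks *Fcer1g* was lower by 0.28 (adjusted p = 0.0292). *Syk* was higher by 0.25 and passed the threshold narrowly (adjusted p = 0.0494). Over all genes, calls in this comparison went from 1169 to 469 with the stress score as a covariate and to 501 within the first naming scheme.

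Of 22 adaptor and kinase genes of the pathway, 9 were higher and 6 lower in CLEC4F- macs than in WD ResKCs, with a median log2 difference of 0.13 against 0.02 over all genes tested. Over all genes tested, 16.1% were higher and 17% lower in this comparison. The 4 that differed most were the calcium-regulated factor *Nfatc2* (5.19), the CARD9 partner *Malt1* (1.40), the exchange factor *Vav3* (1.32) and the kinase *Src* (-1.15). In CLEC4F- macs against moKCs 6 were higher and 2 lower (7.09% and 9.34% of all genes), led by *Nfatc2* (4.05), *Vav3* (0.91), *Malt1* (0.88) and *Rel* (0.72), and none was called between moKCs and WD ResKCs. With WD at 24 weeks 3 were higher and 3 lower (4.84% and 3.87% of all genes), among them *Vav3* (0.54), *Prkcd* (0.37) and *Tyrobp* (-0.31). Of 8 inhibitory partners, *Ptpn22* was higher (0.33) and *Dok2* lower (-0.32) in CLEC4F- macs than in WD ResKCs, and *Dok2* was also lower against moKCs (-0.38).

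Of 14 cytokine and early genes that these receptors can induce, 12 passed the filter. In CLEC4F- macs 5 were higher than in WD ResKCs and none lower, led by *Ptgs2* (4.16), *Ccl3* (2.59), *Egr2* (2.12) and *Cxcl2* (1.78), with a median of 1.18 and 16.1% of all genes higher. In that comparison 3 of 10 stress genes were higher too, with sums of 2172 to 10865 CPM in CLEC4F- macs against 1050 to 4945 CPM in WD ResKCs. In moKCs *Ccl3* was higher (1.70). With WD at 24 weeks 4 were lower than with SD, *Il6* (-2.45), *Il1b* (-1.92), *Ccl3* (-1.91) and *Il10* (-1.75), where 3.87% of all genes were lower and 7 of 10 stress genes were lower too. The part of the stress genes in either difference was not tested.

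Other lectins of the 2 clusters and of macs gave a mixed picture. Of 11 cluster neighbours 8 passed the filter, and 4 were higher and 1 was lower in CLEC4F- macs than in WD ResKCs, against 16.1% and 17% of all genes. The oxidised LDL receptor *Olr1* (3.36), *Klrb1b* (2.40), *Clec1a* (1.42) and *Clec2i* (0.99) were the 4 that were higher. Against moKCs *Klrb1b* (2.15) and *Clec2i* (0.54) were higher and *Clec1b* (-0.92) was lower. With WD at 24 weeks *Klrb1b* (5.20, SE 1.24) and the cross-presentation receptor *Clec9a* (1.40, SE 0.38) were higher. *Clec9a*, and *Cd209a* below, are also on the list of dendritic cell markers. Of 10 mac lectins outside the clusters, 5 were higher and 3 lower in CLEC4F- macs than in WD ResKCs, against the same shares of all genes. The 4 that differed most were *Mgl2* (5.55), *Cd209a* (5.29), *Clec5a* (3.18) and *Cd209f* (-2.996). *Mgl2* (5.22), *Cd209a* (4.77) and *Clec5a* (1.31) were higher and *Clec4f*, the gene of the sort marker, was lower (-2.52) in CLEC4F- macs than in moKCs. *Cd207*, the langerin gene, was higher in moKCs than in WD ResKCs (2.77), as was *Clec5a* (1.87), whereas *Cd209f* was lower (-3.90). With WD at 24 weeks *Cd207* was lower (-2.23). In WD ResKCs between the times, in SD ResKCs between the times, with diet at 12 weeks and for the difference of the diet effects, no gene of these 5 pathway lists was called.

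The genes with the most similar profile to each member were found by the root mean square difference of log2 CPM, centred per gene, over the 35 libraries, which share depth and composition across genes. The closest for *Clec4a3* were *Fcer1g* (0.115) and *B2m* (0.122), against a spread of *Clec4a3* about its own mean of 0.185. For *Clec12a* they were *Ndufa8* (0.111) and *Mrps24* (0.117), for *Clec4a1* *Nadk* (0.224) and *Lst1* (0.231), for *Clec4a2* *Cxcl16* (0.243) and *Pla2g7* (0.250), and for *Clec4n* *Ncapg2* (0.227). For *Clec7a* they were the pathway gene *Vav3* (0.312) and *Specc1* (0.344) against a spread of 0.674, and for *Clec4b1* *Tmem38b* (0.357) and *Ms4a6b* (0.368) against 0.787. *Clec4d* was closest to *Glipr1* (0.478) and *Gpr35* (0.507), and *Clec4e* to *S100a6* (0.937) and *Slamf7* (1.03), against a spread of 2.03. Among the members the closest pair was *Clec4a3* and *Clec12a* (0.179), followed by *Clec4a1* and *Clec4a3* (0.242). The measure is not scaled to spread, so genes that vary little come out close. The spreads of *Clec4a3*, *Clec12a* and *Clec4a1* were 0.185, 0.198 and 0.379. *Clec4b1* and *Clec7a* differed by 0.465, against spreads of 0.787 and 0.674.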

How the data were processed

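The authors sequenced 75-base single reads of sorted macs, mapped them to mm10 with HISAT2 2.2.0 and counted them per gene with featureCounts 2.0.0, as the study's methods and the submitters' processing notes give. The deposited values are the authors' raw counts per gene symbol, 1 table per library, without filter or normalization. The annotation, strand setting and treatment of multi-mapping reads are not given in the sources used here. Without a known strand setting, reads of a gene and of an antisense transcript cannot be told apart, and multi-mapping reads could shift the shared windows of *Clec4a2* and *Clec4b1*.

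The members and the gene lists were chosen with earlier results of these data known. Groups followed the labels, and no pair of libraries within a group agreed within sampling noise. Genes with more than 1 CPM in at least 5 libraries were kept. CPM were scaled by TMM factors, and log2 CPM used a prior count of 2. Group means of all 35 libraries were fitted with edgeR 4.0.16 (glmQLFit, glmQLFTest) in R 4.3.3, with Benjamini-Hochberg adjustment over 13421 genes. SE and 95% intervals were taken from the F statistic. The study itself used limma with an absolute log2 limit of 1, and both were run as alternatives (limma 3.58.1, DESeq2 1.42.0), with others on filter, scaling, dispersion, covariates, naming scheme, replicate block and single libraries. Libraries of 11568590 to 15163845 counts put 3 counts at 0.198 to 0.259 CPM, and this floor covers counting error only. Promoter letters came from RefSeq for GRCm38.p6, and exon lengths and positions from GENCODE M21.

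Named genes were all 9 members, *Fcer1g*, *Syk*, *Card9*, *Ptpn6*, up to 4 called genes per pathway list and comparison with the largest absolute log2 fold change, and the 2 genes nearest in profile to each member, of which some are not reported here. Marker lists are given as counts and sums.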

Additional observations from a re-analysis of the deposited data

Results flagged for a closer look

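Of 54 group profiles of single members (9 genes in 6 groups of 5 to 7 libraries), 5 had a lone library whose gap to the others was large for the range of its group, on log2 CPM. Chance flags about 1 in 20 such profiles. For *Clec4b1* the lowest was WD ResKC replicate 1 of 12 weeks, at 4.46 (21.8 CPM) against 5.24 to 5.50 in the others, and moKC replicate 1, at 4.76 (27.0 CPM) against 5.83 to 6.26. CLEC4F- mac replicate 6 was the highest for *Clec4b1*, at 7.02 (129 CPM) against 6.45 to 6.63. For *Clec7a* the lowest was SD ResKC replicate 6 of 24 weeks, at 7.61 (195 CPM) against 8.54 to 8.85, and the highest was WD ResKC replicate 6 of 24 weeks, at 9.80 (891 CPM) against 8.84 to 9.14. Both *Clec7a* libraries enter the diet comparison at 24 weeks, and the value without each stands beside that result. No member had a diet effect that differed between 12 and 24 weeks at an adjusted p under 0.05 in the edgeR quasi-likelihood test.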

How the results depend on the processing

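Of 1791 member values recomputed under the alternatives, 1701 kept their side of the threshold, 77 lost a call and 13 gained one. No called value changed sign, and 64 values that were not called did. For CLEC4F- macs against WD ResKCs, 6 members were called, 4 with the study's limit on fold change and 3 within the second naming scheme. For moKCs against WD ResKCs 2 were called, 1 with the study's limit on fold change, 0 within the first scheme, 1 within the second and 1 to 2 without single libraries. For CLEC4F- macs against moKCs 4 were called, 2 with the study's limit, 2 within the first scheme, 0 within the second and 2 to 5 without single libraries. For WD against SD at 24 weeks 3 were called, 1 with the stress covariate, 0 with the study's limit and 0 within the first scheme. For the difference of the diet effects 0 were called, and 1 with the naming scheme as a covariate (*Clec12a*, -0.63, adjusted p = 0.0369). For WD ResKCs between the times 3 were called, 1 without a filter, 1 with the compared groups alone, 0 with the study's limit, 0 within the first scheme and 0 to 3 without single libraries. The cause of these changes was not tested, and fits within a scheme hold fewer libraries. The second scheme could not be fitted for comparisons with WD at 12 weeks or SD at 24 weeks, where it holds no library. The labels do not say whether replicate numbers pair the samples, and the main fit did not use them as pairs. Same-numbered libraries had correlations of deviations from -0.357 to 0.263, and 9 of 38 libraries correlated best with their own number. For CLEC4F- macs against WD ResKCs these correlations ran from 0.0242 to 0.263, and 3 of 6 libraries correlated best with their own number. Correlations of so few libraries cannot settle whether samples were paired. With the replicate block, 0 members were called for CLEC4F- macs against moKCs and 0 for WD ResKCs between the times. Over all genes, calls ranged from 1399 to 4899 (4433 as reported) for CLEC4F- macs against WD ResKCs, from 62 to 576 (401) for moKCs against WD ResKCs, from 325 to 2416 (2204) for CLEC4F- macs against moKCs, from 450 to 1504 (1169) for WD against SD at 24 weeks, from 0 to 44 (5) at 12 weeks, from 0 to 184 (38) for the difference of the diet effects, from 0 to 16 (0) for SD and from 21 to 632 (438) for WD ResKCs between the times. Leaving out CLEC4F- mac replicates 1 and 4 together was chosen after seeing the data. Depth limits *Clec4e* most, whose lowest value of 0.0721 CPM lies under the 3-count floor.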
